A study of Homo sapiens with 12 samples.

Results

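SK-UT-1 cells are an established human line from a leiomyosarcoma, a malignant tumour of smooth muscle, that arose in the uterus. The libraries described are those that the labels give as vehicle and that have a column of expression values. They are replicates 13, 14 and 15, which are 3 of the 10 libraries with expression values and 3 of the 12 samples in the labels. Vehicle replicate 16 was not analysed here. The study treated SK-UT-1 cells, grown in serum-containing medium, for 48 h with the vehicle (DMSO), with 5 µM JQ1 or with 5 µM I-BET 762, which are inhibitors of BET bromodomain proteins. No reads of a treated library enter any value below. The normalized counts carry the scaling factors of the authors, 1.033, 1.082 and 1.099 in replicates 13, 14 and 15. The treated libraries may have taken part in setting those factors. RNA was sequenced from strand-specific total RNA libraries. The cells are 1 line, and the labels do not say whether the replicates came from separate cultures, so the spread between them may be technical.

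Smooth muscle cells of the uterus contract through actin and myosin filaments, and serum response factor (SRF) with its coactivator myocardin (MYOCD) switches on the genes of this apparatus. In the uterus these cells also carry receptors for estrogen, progesterone, oxytocin and prostaglandins. Leiomyosarcomas keep parts of this program to differing degrees, and changes of RB1 are common in them.

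Read depth was similar in the vehicle libraries, with 35564590, 38597876 and 38899942 reads on genes in replicates 13, 14 and 15. Of 22784 gene symbols with a value, 14040 (61.6%) were expressed, which is defined here as at least 10 normalized counts in every vehicle library. At the other end, 5462 symbols (24%) were at the floor, with at most 3 reads in each library, the upper limit that a count of 0 allows. A gene at the floor was not detectable at this depth, and its absence was not shown. Among 16612 protein-coding genes, 12497 (75.2%) were expressed and 2471 (14.9%) were at the floor. Levels are compared between genes as TPM, a length-corrected level, which is the reads of a gene divided by the length of its annotated exons and scaled so that all matched genes of a library sum to the same fixed total. A value after ± is the SD over the 3 vehicle libraries unless another is named. Orders of genes are those at this length, and genes can change places with another length, such as that of the Ensembl canonical transcript, which is used beside some of the orders below. The median level of all protein-coding genes was 8.68 TPM and that of the expressed ones was 17.9 TPM.

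Genes whose exons recur elsewhere in the reference genome need separate treatment before any gene is counted as silent. Reads from such exons fit more than 1 place, and 934 protein-coding genes had an exact copy elsewhere for at least 20% of the 75-base stretches of their exons. Of these, 34.3% were at the floor, against 13.7% of the other protein-coding genes. Among 300 protein-coding genes with over 90% of their stretches copied on alternate contigs of hg38, 24.3% were expressed, against 77% of the 15678 genes under the 20% limit. The copied share is given below beside each such gene named, and its part in the result was not tested.

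NFIB, CCND2, SMO and HMGA2 were named as markers of these cells with earlier results of these data known, so their expression is no independent finding. All were expressed. NFIB, a transcription factor of the nuclear factor I family on chr9:14081843-14398983 (hg38, as are all coordinates here), stood at 182, 159 and 165 TPM in replicates 13, 14 and 15, a mean of 169 ± 11.9 (n = 3). CCND2, which encodes the G1 cyclin D2 (chr12:4269771-4305353), had 75.2, 74.4 and 74.5 TPM. SMO, the signal transducer of the Hedgehog pathway (chr7:129188633-129213545), had 55, 51.8 and 50.4 TPM. HMGA2, an architectural chromatin protein of fetal tissues (chr12:65824460-65966291), had 23, 20.6 and 22.3 TPM. The order NFIB, CCND2, SMO, HMGA2 was the same in each library, and no library of one gene overlapped the libraries of the next. This order depends on the length, since with the canonical transcript HMGA2 had a mean of 51.5 TPM and SMO 40.1 TPM. In level, 96.2% of protein-coding genes lay below NFIB and 66.7% below HMGA2.

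The 15 most abundant protein-coding transcripts are given first. TMSB10, which encodes the actin-sequestering thymosin beta 10 on chr2:84905656-84906671, led with 20416, 20801 and 21011 TPM in the 3 libraries. GAPDH, a glycolytic enzyme, followed at 6257 ± 82.4 TPM and the linker histone gene H1-4 at 6251 ± 252 TPM. ALDH1A1, an aldehyde dehydrogenase that makes retinoic acid, stood at 4799.8, 5032 and 5059.5 TPM on chr9:72900671-73080442. The remaining genes among the 15 highest were H3C2, FTL, ANXA1, TMSB4X, H2AC20, H4C3, EEF1A1, COX3 (20% copied), HSP90AB1, H2BC17 and COX1 (40% copied), at 4102 ± 58.2 TPM for H3C2 down to 2499 ± 49.2 TPM for COX1. The order below TMSB10 and the membership of the 15 depend on the length. With the canonical transcript GAPDH had 7474 TPM, ANXA1 6033 TPM, TMSB4X 4951 TPM, EEF1A1 4892 TPM and H1-4 4005 TPM, beside 13288 TPM for TMSB10. VIM, which is not among the 15, had 3027 TPM with that length, against 1601 TPM for COX1. Within this set, ANXA1 (annexin A1, 2963 ± 125 TPM) binds membranes in a calcium-dependent way, and FTL (3625 ± 83.5 TPM) is the light chain of the iron store ferritin. The 10 highest protein-coding genes held 8.6% of all protein-coding TPM and the 100 highest held 26.3%.

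**Figure D1:**
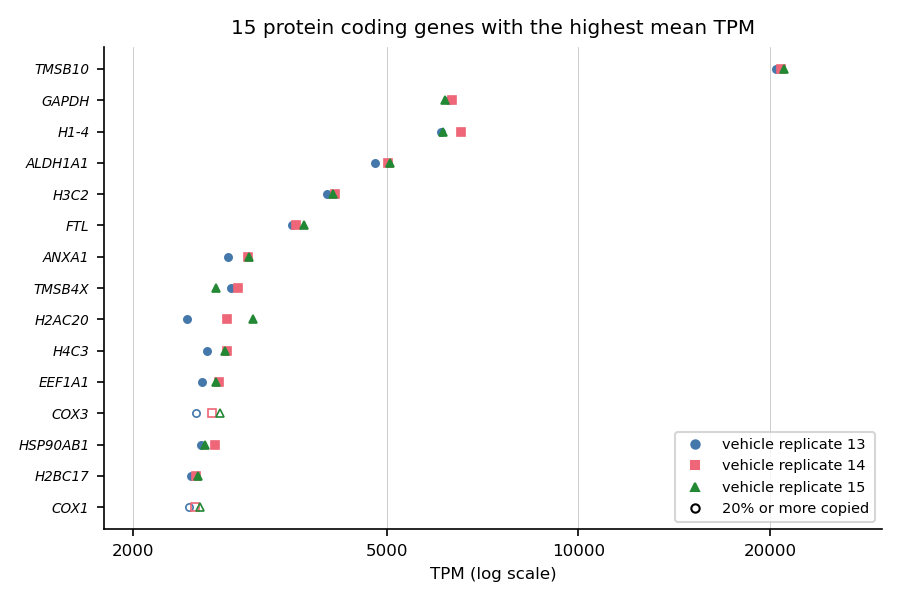
TPM on a log axis of the 15 protein-coding genes with the highest mean, with 1 point for each of vehicle replicates 13, 14 and 15 and open points for genes with at least 20% of their exon stretches copied elsewhere. TMSB10 stands apart at 20743 ± 302 TPM, above every library of the other genes, and GAPDH and H1-4 overlap at this exon length, whereas with the canonical transcript their means were 7474 and 4005 TPM.

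Noncoding transcripts were led by the RNA of the signal recognition particle, which targets new proteins to the endoplasmic reticulum. RN7SL1 alone held 27.9% of all TPM, with 987240, 1013810 and 1022670 reads, although 66.7% of its stretches are copied elsewhere. Its share depends on the length, since its mean was 278857 TPM as given and 178664 TPM with the canonical transcript. The 236 RN7SL symbols together held 29.8 ± 0.915% of TPM but 2.86% of the normalized counts, a short transcript that weighs more per length than per read. RN7SL3 (18209 ± 667 TPM, 33.3% copied), the small nucleolar RNA SNORA73B (2557 ± 242 TPM), the Cajal body RNAs SCARNA7 (1403 ± 58.2 TPM) and SCARNA5 (1113 ± 49.6 TPM), and the nuclear RNA MALAT1 (1267 ± 33.3 TPM) came next. RN7SL4P (33.3% copied), SNORD17 and the ribosomal protein pseudogenes RPS2P5 (54.5% copied) and RPL3P4 (40% copied) completed the 10 highest, between 839 ± 27.6 and 975 ± 664 TPM. RN7SL4P was uneven, at 1724, 458 and 743 TPM.

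Groups of housekeeping transcripts were steady between libraries. The 78 histone genes in the table held 4.32%, 4.56% and 4.53% of TPM in replicates 13, 14 and 15. Of these genes 54 were expressed, beside 75.2% of all protein-coding genes. Most replication-dependent histone transcripts lack a poly(A) tail, and total RNA libraries retain them. The 82 cytosolic ribosomal protein genes held 4.89 ± 0.122% of TPM, with RPS12 highest at 2460.2 ± 116 TPM. The 13 protein genes of the mitochondrial genome held 0.978 ± 0.0439% of TPM and were all expressed. Among these, the cytochrome c oxidase subunit COX3 was highest at 2636 ± 119 TPM and ATP8 lowest at 16.2 ± 2.99 TPM.

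Lists of lineage markers differed in level and in the number of members expressed. Over all lists together, 483 of 524 genes had a value, of which 337 were expressed and 79 were at the floor. All 21 proliferation genes were expressed, as were 18 of 21 smooth muscle contractile genes and 21 of 26 mesenchymal genes, beside 75.2% of all protein-coding genes. Epithelial markers were expressed in 12 of 22 cases and Müllerian and uterine markers in 15 of 22. By contrast, 4 of 16 skeletal and cardiac muscle genes, 2 of 9 endothelial genes, 2 of 9 immune genes and 1 of 6 adipocyte genes were expressed. The medians were 172 TPM for the proliferation list, 21.6 TPM for smooth muscle and 6.29 TPM for mesenchymal genes. For the epithelial list the median was 0.324 TPM, and it was 0.0308 TPM for skeletal and cardiac muscle and 0.0300 TPM for immune genes, beside 8.68 TPM for all protein-coding genes. A gene such as ZEB2, with a long transcript, can pass the count minimum at 0.0505 ± 0.00451 TPM, so counts of expressed genes are read together with the levels. Most of the smooth muscle list was expressed, including CNN1, SMTN, DES and LMOD1, while ACTG2 and MYOCD were at the floor, and of the uterine hormone receptors ESR1 and PGR were at the floor too.

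**Figure D2:**
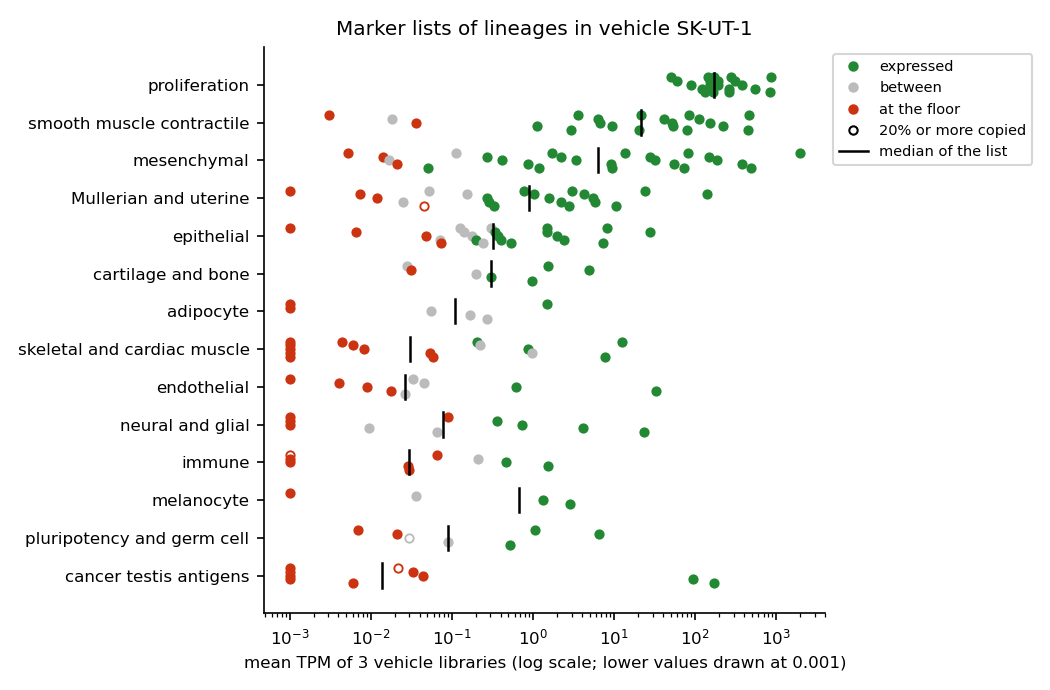
Mean TPM of each listed gene over the 3 vehicle libraries on a log axis, by marker list, with expressed genes in green, genes at the floor in red and genes between in grey. The black bar is the median of the list, which is 21.6 TPM for smooth muscle, 6.29 TPM for mesenchymal and 0.0300 TPM for immune markers.

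Smooth muscle genes are described by role. Of the contractile filament genes, TPM2 (a tropomyosin that lies along actin filaments, chr9:35681992-35690056) was highest with 441, 461 and 472 TPM in replicates 13, 14 and 15. ACTA2, the alpha actin of vascular and visceral smooth muscle (chr10:88935074-88991339), had 110.3, 114 and 109.6 TPM. The light chain gene MYL9 had 79.9 ± 1.46 TPM, TPM1 41.1 ± 0.975 TPM and TAGLN, the actin-bundling transgelin, 21.6 ± 0.47 TPM. CNN1, calponin 1, a late marker of differentiated smooth muscle, was low at 2.67, 3.39 and 2.86 TPM. ACTG2, the smooth muscle gamma actin gene on chr2:73892314-73919865, was at the floor with 2, 1 and 2 reads. MYH11, the smooth muscle myosin heavy chain, was not analysed here. The libraries of ACTA2 and MYL9 did not overlap each other, and CNN1 in its highest library remained below every library of TAGLN.

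Attachment and cytoskeletal genes of smooth muscle included several of the most abundant of the list. The actin crosslinker FLNA (chrX:154348524-154374634) had 507, 403 and 445 TPM, overlapping the libraries of TPM2, and vinculin (VCL), an adhesion protein, had 221 ± 2.0 TPM. CNN2 stood at 153 ± 5.07 TPM, CALD1, the actin regulator caldesmon, at 85.4 ± 2.46 TPM, and PDLIM7 at 52.4 ± 1.89 TPM. SMTN (smoothelin, 20.2 ± 2.28 TPM), DES (the muscle intermediate filament desmin, 6.66 ± 0.0916 TPM), LMOD1 (3.61 ± 0.186 TPM) and the myosin light chain kinase MYLK (1.14 ± 0.0746 TPM) followed. SYNPO2 had 3, 4 and 6 reads and was neither expressed nor at the floor by these definitions. Desmin was read 193, 203 and 205 times in the 3 libraries.

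The transcription factors of this program were present apart from myocardin. SRF stood at 53.6, 53.6 and 52.7 TPM on chr6:43171269-43181506. Its coactivators MRTFB and MRTFA had 9.37 ± 0.584 and 6.41 ± 0.617 TPM. MYOCD, on chr17:12665890-12768949, had 0, 0 and 1 reads and was at the floor. With the length of the longest annotated transcript in place of all exons, the level of TPM1 was 2.90 times that given, MYLK 2.43 times, TPM2 1.57 times and ACTA2 1.55 times. With the canonical transcript TPM1 was at 318 TPM, ACTA2 at 297 TPM and MYL9 at 51.6 TPM, so that TPM1 stood above both.

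SRF binds a 10-base motif, the CArG box, so the promoter windows of the contractile list were read from RefSeq (GRCh38.p14, 250 bases before to 50 after each RefSeq gene start, searched on both strands). A box is counted here only as an exact match to CC, 6 letters A or T, and GG, so a site that departs from these letters is not counted. A window was given for 17 of the 22 genes, and 6 of them held a CArG box in at least 1 window, namely ACTG2, CNN2, FLNA, MYLK, SMTN and SRF. Counted by window, 6 of 33 held one, against 1.29% of all 35116 windows. Counted by the first window of each gene, 5 of 17 genes held one (29.4%), against 1.29% of 27305. The last 150 bases before 1 RefSeq start of each gene are printed, 5′ to 3′ on the strand of the gene. They are given for ACTG2, which was at the floor, and for CNN2, FLNA, MYLK and SRF, which were expressed. The windows printed for ACTG2 and ACTA2 lie inside the gene spans given above, downstream of the outermost annotated start. TPM sums all transcripts of a gene, and which start its reads came from was not tested. Capitals mark the CArG boxes. Neither window of ACTA2 holds an exact match, and in the one printed the capitals mark a pair of 10-base runs 1 letter from one.
ACTG2 (chr2:73892858-73893007, plus strand): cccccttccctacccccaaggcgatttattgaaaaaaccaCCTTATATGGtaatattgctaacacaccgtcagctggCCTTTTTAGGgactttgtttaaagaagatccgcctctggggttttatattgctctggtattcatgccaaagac
CNN2 (chr19:1026458-1026607, plus strand): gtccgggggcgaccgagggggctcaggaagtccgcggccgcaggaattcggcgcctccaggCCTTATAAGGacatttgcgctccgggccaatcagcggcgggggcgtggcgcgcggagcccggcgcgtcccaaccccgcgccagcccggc
FLNA (chrX:154374635-154374784, minus strand): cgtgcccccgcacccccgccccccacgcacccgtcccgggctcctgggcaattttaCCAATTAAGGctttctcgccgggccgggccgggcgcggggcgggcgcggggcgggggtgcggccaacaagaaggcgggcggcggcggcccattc
MYLK (chr3:123620549-123620698, minus strand): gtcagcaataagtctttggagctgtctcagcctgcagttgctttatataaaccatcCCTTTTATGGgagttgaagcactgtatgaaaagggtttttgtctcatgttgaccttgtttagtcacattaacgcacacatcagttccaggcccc
SRF (chr6:43171119-43171268, plus strand): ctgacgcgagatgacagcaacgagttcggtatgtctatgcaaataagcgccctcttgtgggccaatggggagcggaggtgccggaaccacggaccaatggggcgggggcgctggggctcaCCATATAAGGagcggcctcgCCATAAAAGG
ACTA2 (chr10:88952774-88952923, minus strand): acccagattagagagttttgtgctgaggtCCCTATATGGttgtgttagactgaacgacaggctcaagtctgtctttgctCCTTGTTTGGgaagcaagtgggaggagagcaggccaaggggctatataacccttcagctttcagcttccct
The boxes of ACTG2 begin 110 and 73 bases before the RefSeq start used. Those of CNN2, FLNA and MYLK begin 89, 94 and 94 bases before theirs. SRF carries its boxes 30 and 10 bases before its start. ACTG2 at the floor thus held the same number of boxes as SRF at 53.3 ± 0.542 TPM. A match is a description of these letters and shows no binding, and the lack of an exact match, as in ACTA2, shows no lack of binding.

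Promoter letters also differed between genes by level. Taking the first window of each protein-coding gene under the copy limit, 9821 expressed genes had 26.4 ± 11.9 CG dinucleotides per window (SD over genes) and 1616 genes at the floor had 12.1 ± 12. The motif GGGCGG, searched on both strands, was in 71.5% of expressed and 36.1% of floor windows, and in 44.6% of the first windows of all genes. TATAAA, on both strands, was in 5.23% of expressed and 16.6% of floor windows, and in 12% of all. CCAAT, on both strands, was in 36.6% and 37.1%, and in 35.7% of all. Genes are not independent replicates, and these shares are descriptions.

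Mesenchymal genes were led by an intermediate filament and matrix genes. VIM, the vimentin gene on chr10:17228241-17237593, had 1992, 1871 and 2036 TPM. SPARC, a collagen-binding matrix protein, had 494, 500.4 and 496 TPM, and the fibrillar collagen genes COL3A1 and COL1A2 had 394, 354 and 383 TPM and 172, 135 and 142 TPM. COL1A1, which encodes the partner chain of COL1A2 in collagen I, was at 2.17, 1.69 and 1.29 TPM. In each library COL1A2 was far above COL1A1, and COL1A1 was also among the more variable genes, highest in replicate 13. Fibronectin (FN1) was at 0.272 ± 0.0686 TPM, and the matrix genes LUM (1, 0 and 1 reads) and POSTN (1, 0 and 0 reads) were at the floor, as was the TGF-beta coreceptor ENG (0, 1 and 1 reads). DCN, a small proteoglycan, had 1, 4 and 3 reads.

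Surface markers of mesenchymal cells were present in part. NT5E (CD73) had 81.4 ± 3.21 TPM, CD44 31.9 ± 1.29 TPM and THY1 (CD90) 27.6 ± 0.901 TPM. CDH2, N-cadherin, was at 2.2 ± 0.225 TPM and CDH11 at 0.421 ± 0.0576 TPM. The transcription factors of this list ranged widely. TWIST1 (chr7:19020991-19117636) had 183, 176 and 194 TPM, SNAI2 72.5 ± 2.18 TPM and ZEB1 54.4 ± 0.858 TPM, whereas SNAI1 had 0.872 ± 0.0215 TPM and ZEB2 0.0505 ± 0.00451 TPM. PRRX1 had 8, 11 and 15 reads.

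Epithelial genes were mostly low, with a few exceptions. KRT19, a simple epithelial keratin, had 28.6, 27.7 and 28 TPM and led its list. KRT18 followed at 8.33 ± 0.166 TPM, CLDN3 at 7.3 ± 0.731 TPM and the placental cadherin CDH3 at 2.42 ± 0.205 TPM. E-cadherin (CDH1) had 4, 9 and 15 reads, equal to 0.125 ± 0.0706 TPM. EPCAM stood at 1.48 ± 0.0783 TPM. The basal keratin genes KRT5 (0, 1 and 0 reads) and KRT14 (0, 3 and 1 reads) and the regulators GRHL2 (0, 0 and 0 reads) and OVOL2 (0, 3 and 3 reads) were at the floor. The epithelial splicing factors ESRP1 and ESRP2 had 0.141 ± 0.0136 and 0.245 ± 0.106 TPM.

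Müllerian and uterine genes included expressed homeobox factors. MSX1 had 22.4, 26.6 and 23.3 TPM and the T-box factor TBX3 10.7 ± 0.389 TPM. GATA2, which acts with the progesterone receptor in uterus, had 5.76 ± 0.377 TPM, HOXA10 5.5 ± 0.177 TPM, FOXL2, a factor of ovary and uterus, 4.23 ± 0.172 TPM, WT1 3.04 ± 0.357 TPM, HOXA13 2.78 ± 0.23 TPM and HOXA11 2.22 ± 0.258 TPM. HAND2, a progesterone-induced factor of uterine stroma, had 1.02 ± 0.171 TPM. No transcription factor of this list had a higher mean than MSX1, at 24.1 ± 2.23 TPM. The interferon-induced surface gene IFITM1 was highest of the list at 142, 139 and 139.8 TPM. SOX17, a factor of the endometrial epithelium, had 0, 0 and 0 reads, and WNT7A (0, 2 and 0 reads) and the anti-Müllerian hormone receptor AMHR2 (0, 1 and 0 reads) were at the floor. LHX1 was at the floor too, with 95.2% of its stretches copied elsewhere.

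The lists for other lineages described next each had a median below 1 TPM, and their counts stand beside 75.2% of all protein-coding genes expressed and 14.9% at the floor. In the skeletal and cardiac list, 10 of 16 genes were at the floor, among them MYOG, MYH6, MYH8, TNNT2 and TNNT3 with 0 reads in each library. The cardiac factor NKX2-5 had 11.8, 13.4 and 12.2 TPM and PAX3, a factor of muscle and neural crest precursors, 8.13, 7.73 and 7.5 TPM. MYOD1 was at 28, 10 and 25 reads. EGFL7, which endothelial cells secrete, was at 35.8, 30.3 and 32.2 TPM, while KDR, CDH5, TIE1 and PECAM1 had at most 2 reads in any library. Of the immune markers, CSF1R and LYZ had 0 reads in each library and CD14 had 1.55 ± 0.328 TPM. PTPRC also had 0 reads, with 58.7% of its stretches copied elsewhere. NES, an intermediate filament of precursor cells, had 23.4 ± 0.832 TPM, whereas SOX10, NEFL and ELAVL4 had 0 reads in each library. ADIPOQ, FABP4 and MLANA had 0 reads as well. Cartilage and bone genes were expressed in 4 of 7 cases (highest ALPL, an alkaline phosphatase, 4.88 ± 0.419 TPM), neural and glial genes in 4 of 10, melanocyte genes in 2 of 4 (highest PMEL, a melanosome protein, 2.91 ± 0.26 TPM) and pluripotency and germ cell genes in 3 of 7 (highest TFAP2C, a germ cell and trophoblast factor, 6.59 ± 0.538 TPM).

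Nuclear receptors of steroid hormones were low apart from the glucocorticoid receptor. NR3C1, the glucocorticoid receptor gene on chr5:143277931-143435512, had 21.9, 22 and 23.3 TPM. ESR1, estrogen receptor alpha (chr6:151656691-152129619), had 2, 1 and 0 reads, and the progesterone receptor PGR (chr11:101029624-101129813) had 0, 1 and 0 reads. Both were at the floor. ESR2, estrogen receptor beta, had 4, 5 and 2 reads and the mineralocorticoid receptor NR3C2 14, 10 and 14 reads. The exons of ESR1 and PGR had no copied stretch. Of 6 steroid receptors, NR3C1 was the only one expressed, and each of its libraries lay above those of the others.

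Among all 47 nuclear receptors, 28 were expressed and 7 were at the floor, beside 75.2% and 14.9% of all protein-coding genes, with a median of 1.46 TPM. NR2F1 (COUP-TFI, chr5:93583222-93594611), an orphan receptor of embryonic mesenchyme and brain, led with 127, 117 and 119 TPM, and NR2F6 had 58.5 ± 2.29 TPM and the clock factor NR1D2 51.7 ± 1.05 TPM. NR2F2, the close relative of NR2F1 and abundant in uterine stroma, had 4.6 ± 0.277 TPM. Of the retinoid and thyroid receptors, RARG had 39.8 ± 2.3 TPM, THRA 15.6 ± 1.49 TPM, RXRA 8.41 ± 0.152 TPM and VDR 1.46 ± 0.288 TPM. RXRB had 8, 12 and 3 reads with 100% of its stretches copied. PPARD, a lipid-sensing receptor, had 18 ± 0.771 TPM and PPARG had 7, 9 and 8 reads. The estrogen-related receptor ESRRA, which binds no estrogen, had 36.6 ± 1.64 TPM. NR1I3 and NR2E3 had 0 reads in each library.

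Receptor tyrosine kinases transmit growth factor signals, and 37 of 57 were expressed while 11 were at the floor, beside 75.2% and 14.9% of all protein-coding genes. MET, the hepatocyte growth factor receptor on chr7:116672196-116798377, was highest with 223, 219 and 217 TPM. AXL (chr19:41219223-41261766), the GAS6 receptor, had 119.9, 110.3 and 112 TPM and DDR2, a collagen receptor, 105, 99.6 and 105 TPM. The libraries of MET, AXL and DDR2 did not overlap each other, and these were the 3 kinases above 100 TPM by mean. With the canonical transcript as length MET still led at 149 TPM, but RYK was at 116 TPM, AXL at 79.5 TPM and DDR2 at 72.8 TPM. The WNT-binding RYK and PTK7 followed at 67.9 ± 2.61 and 50.4 ± 2.67 TPM. PTK7 overlapped ERBB2 (46.8 ± 2.12 TPM), which overlapped EPHA2 (43.8 ± 4.19 TPM), which overlapped EPHB4 (43.4 ± 0.885 TPM). With the canonical transcript EPHB4, at 41.1 TPM, stood above EPHA2, at 29.4 TPM. Over the 56 neighbouring pairs in the order by level as given, 38 had overlapping libraries.

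Members of 1 receptor family often stood far apart. In the FGF family, FGFR4 had 30.5 ± 1.35 TPM, FGFR1 16.1 ± 0.794 TPM, FGFR3 10.4 ± 0.309 TPM and FGFR2 0.279 ± 0.0378 TPM. EGFR had 10.9 ± 1.2 TPM, ERBB3 1.89 ± 0.101 TPM and ERBB4 5, 5 and 6 reads. PDGFRB, a receptor of mural and mesenchymal cells, had 7.2 ± 1.12 TPM against 0.181 ± 0.0304 TPM for PDGFRA and 0.163 ± 0.00677 TPM for KIT. The insulin receptor INSR was at 13.4, 11.4 and 12.2 TPM and IGF1R, its IGF-binding relative, at 0.194, 0.127 and 0.179 TPM. FLT4 had 6.1 ± 0.276 TPM, FLT1 10, 4 and 5 reads and KDR 0 reads in each library. NTRK2, NTRK3 and EPHA3 likewise had 0 reads. ALK (0, 0 and 1 reads) and ROS1 (1, 0 and 1 reads) were at the floor. With the longest transcript as length, FGFR1 was 2.16 times and ERBB2 1.63 times the level given. DDR1 was not analysed here.

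**Figure D3:**
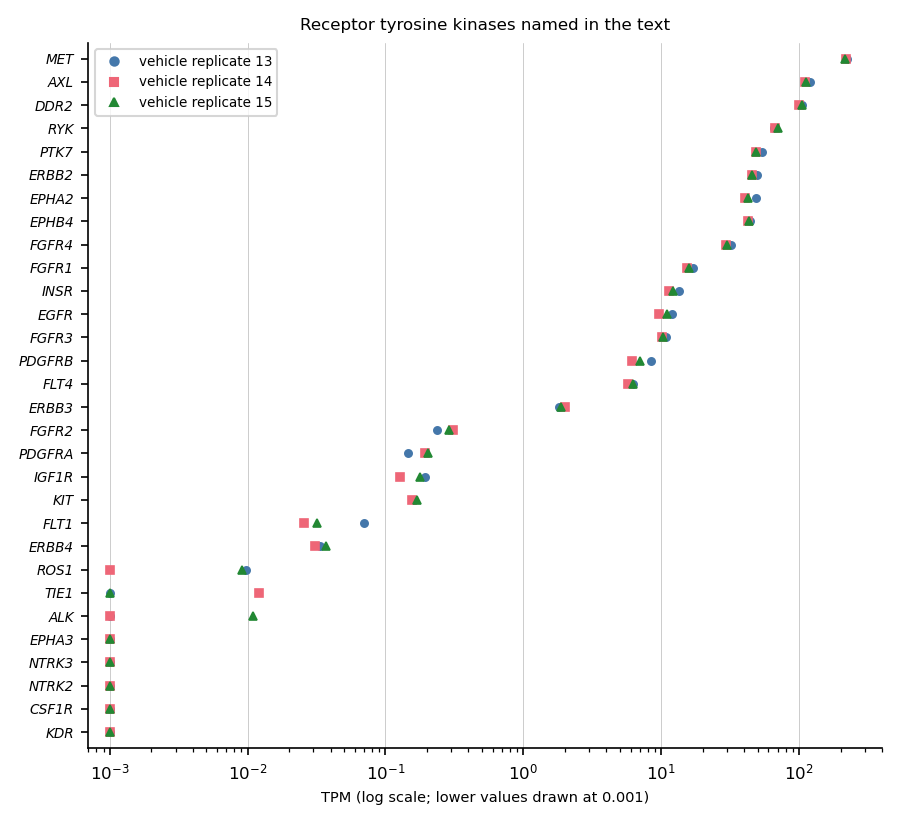
TPM on a log axis of the 30 receptor tyrosine kinases named in the text in vehicle replicates 13, 14 and 15, in order of their mean. MET leads at 217 to 223 TPM, the libraries spread visibly below about 1 TPM, and values under 0.001 are drawn at that limit.

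Receptors of developmental signals were expressed in 23 of 28 cases, beside 75.2% of all protein-coding genes. Of the TGF-beta family, BMPR1A had 57.3 ± 1.87 TPM, TGFBR1 45.3 ± 0.298 TPM and BMPR2 25.6 ± 0.715 TPM, while the type II receptor TGFBR2 had 1.4, 1.26 and 1.36 TPM. BMPR1B had 0 reads in each library. The WNT coreceptors LRP6 and LRP5 had 41.2 ± 0.61 and 28.6 ± 2.87 TPM, FZD2 had 18.4 ± 1.44 TPM and FZD7 10.1 ± 0.217 TPM, and 10 of 12 WNT receptors were expressed, near the share of all protein-coding genes. NOTCH2 stood at 78.7 ± 7.34 TPM, with 22.1% of its stretches copied, NOTCH1 at 5.29 ± 0.865 TPM and NOTCH3 at 1.86 ± 0.227 TPM. NOTCH4 was not analysed here.

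In the Hedgehog pathway, ligands bind PTCH1 and release SMO, which acts through the GLI factors. The ligands were the lowest part of this list. SHH had 0, 1 and 0 reads and was at the floor, IHH had 5, 2 and 0 reads and DHH 7, 11 and 14 reads. The receptor PTCH1 had 0.706, 0.598 and 0.763 TPM, below SMO at 55, 51.8 and 50.4 TPM in every library. HHIP, which binds the ligands, had 7.1 ± 0.497 TPM, and GAS1, a coreceptor, 5.83 ± 0.47 TPM. KIF7 was the highest intracellular member at 17.8 ± 0.907 TPM. GLI1 had 9.64, 9.16 and 7.65 TPM, SUFU, which restrains the GLI factors, 6.55 ± 0.266 TPM, GLI2 5.9 ± 0.691 TPM and GLI3 1.03 ± 0.169 TPM. GLI1 overlapped neither GLI2 nor GLI3.

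G protein coupled receptors known from myometrium were expressed in 9 of 18 cases and at the floor in 4 (7 without replicate 13), beside 75.2% and 14.9% of all protein-coding genes. LPAR1, a lysophosphatidic acid receptor (chr9:110873263-111038470), had 93.6, 94.4 and 90.3 TPM and led the list. Of the 18 members, 2 exceeded 10 TPM by mean, a level that 7982 of 16612 protein-coding genes reached. The oxytocin receptor OXTR, which triggers contraction in labour, had 1.31, 1.44 and 1.22 TPM. PTGER4 had 3.84 ± 0.161 TPM, PTGER1 1.87 ± 0.467 TPM and PTGER2 1, 3 and 7 reads. The prostaglandin F receptor PTGFR and the muscarinic receptor CHRM3 had 0 reads in each library. The endothelin receptor EDNRA had 6, 1 and 2 reads and the angiotensin receptor AGTR1 1, 4 and 2 reads. EDNRB was not analysed here.

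Cytokine and death receptors were expressed in 17 of 19 cases, beside 75.2% of all protein-coding genes. IL6ST, the shared gp130 chain, led with 68.7, 73.7 and 74.4 TPM, but with the canonical transcript FAS (89.8 TPM), TNFRSF12A (72.2 TPM) and TNFRSF1A (70.1 TPM) stood above its 61.8 TPM. The death receptors TNFRSF10B and TNFRSF10A, which bind TRAIL, had 66.3 ± 1.87 and 27.7 ± 1.2 TPM, TNFRSF1A 56.5 ± 1.8 TPM and FAS 17.7 ± 0.214 TPM, the last of which was 5.08 times as high with the canonical transcript. IL13RA1 had 47.5 ± 2.23 TPM, IL1R1 39.6 ± 0.261 TPM, OSMR 25 ± 2.04 TPM and LIFR 6.77 ± 0.0865 TPM. Of the interferon receptors, IFNGR1 had 37.8 ± 0.782 TPM and IFNAR1 10.9 ± 0.559 TPM. IFNGR2 had 110, 239 and 236 reads with 92.9% of its stretches copied. IFNAR2 was at 0.258 ± 0.0372 TPM from values that were not whole reads, so its level is uncertain. The chemokine receptors CXCR4 and CCR7 were under the count minimum, and no member was at the floor.

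Tumour suppressor genes were expressed in 44 of 47 cases, against 75.2% of all protein-coding genes, with a median of 19.7 TPM. The 3 that were not expressed, SMARCB1, DAXX and CDKN1C, were copied beyond the limit. CDKN2A, which encodes the CDK4 inhibitor p16 and the MDM2 inhibitor ARF (chr9:21967752-21995301), had 125, 134 and 138 TPM and was second in the list to SDHB (160.1 ± 9.27 TPM). Its neighbours on 9p21, MTAP and CDKN2B, had 45.5 ± 0.625 and 18.3 ± 0.368 TPM. RB1, the target of CDK4 (chr13:48303744-48599436), was low at 5.22, 4.38 and 4.33 TPM, and its relatives RBL1 and RBL2 had 26.8 ± 1.11 and 31.6 ± 0.882 TPM. CDKN1A, a further CDK inhibitor, had 8.44, 7.6 and 6.54 TPM. CDKN1B stood at 40 ± 1.99 TPM. Every library of CDKN2A lay above every library of RB1. With the longest transcript as length, CDKN2A was 2.88 times the level given, and with either other length it stood above SDHB. The gene level sums p16, ARF and other transcripts of CDKN2A, and mutations were not examined.

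Suppressors that act in signalling and DNA repair were all expressed. NF2 had 98.3 ± 4.41 TPM, STK11 25.3 ± 0.533 TPM, NF1, which restrains RAS, 18.7 ± 1.57 TPM and TSC2 7.58 ± 1.05 TPM. PTCH1 was the lowest of its group at 0.689 ± 0.0835 TPM. MSH6, a mismatch repair gene, had 49.1, 51.5 and 53.7 TPM. BRCA1 had 27.2 ± 0.534 TPM, BRCA2 12.4 ± 0.276 TPM and ATM 19.7 ± 0.541 TPM. VHL had 91.5 ± 2.35 TPM and the fumarate hydratase gene FH, whose loss marks a class of leiomyoma, 46 ± 1.88 TPM.

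Among chromatin suppressors, low values of copied genes stood beside well expressed genes. BAP1 had 73.5 ± 3.33 TPM, ATRX 40 ± 0.437 TPM, SETD2 33.9 ± 1.47 TPM, SMARCA4 30.5 ± 2.53 TPM, ARID1A 10.5 ± 1.34 TPM and MED12, the Mediator gene often mutated in leiomyoma, 9.31, 7.27 and 7.46 TPM. SMARCB1 had 0, 0 and 0 reads, and 100% of its stretches have a copy elsewhere. DAXX had 9, 12 and 83 reads with 97.4% copied, and the CDK inhibitor CDKN1C had 4, 2 and 1 reads with 84.4% copied. For DAXX the libraries differed several fold, unlike those of BAP1 or ATRX.

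**Figure D4:**
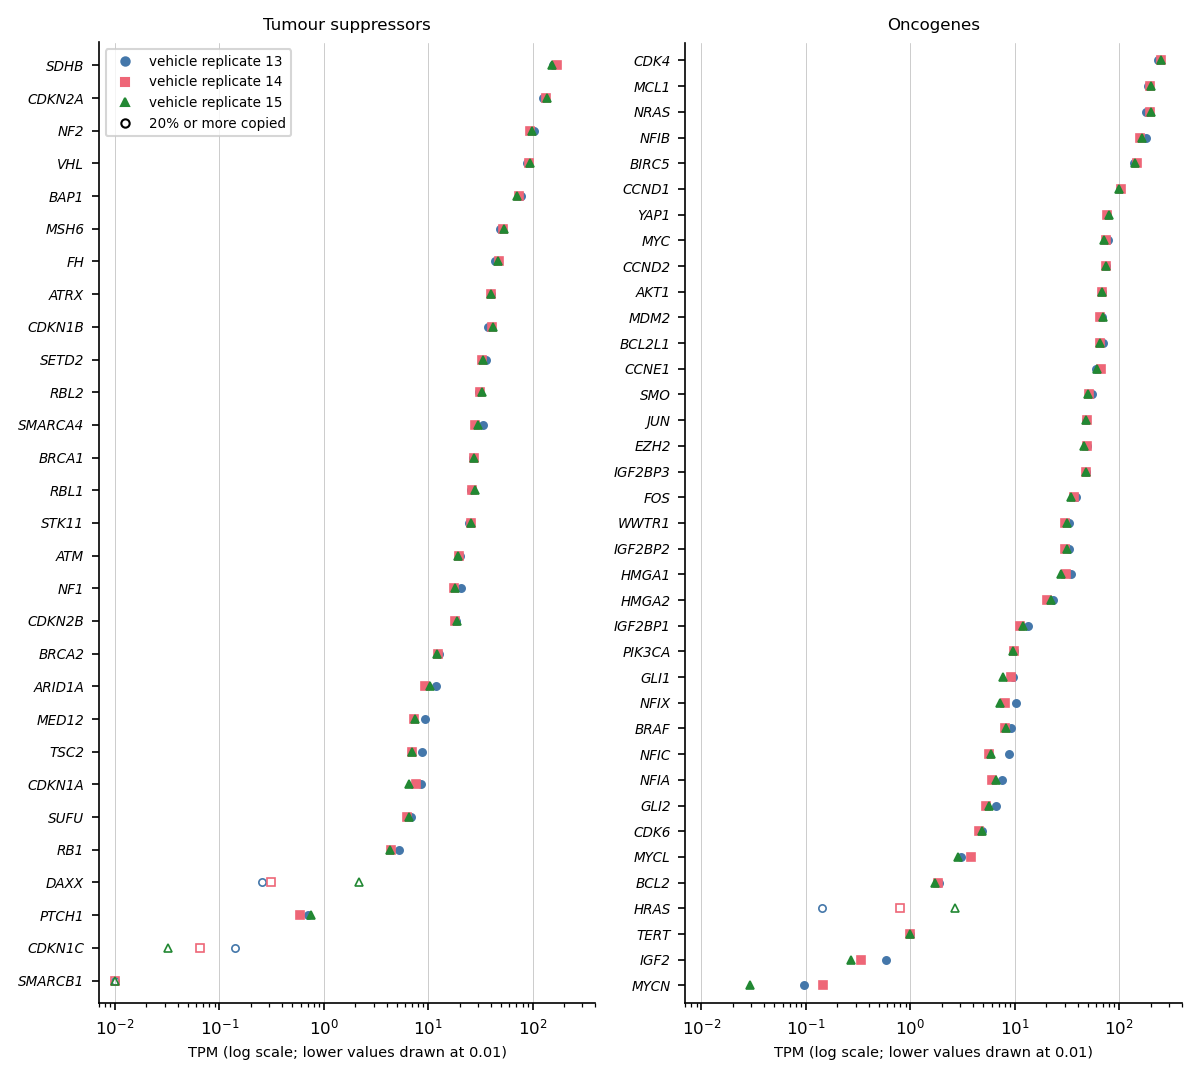
TPM on a log axis of the 29 tumour suppressor genes (left) and 37 oncogenes (right) named in the text, in vehicle replicates 13, 14 and 15, in order of their mean, with values under 0.01 drawn at that limit. Open points mark genes with at least 20% of their stretches copied elsewhere, which include SMARCB1, DAXX, CDKN1C and HRAS near the bottom, and the libraries of the other genes above 1 TPM lie close together.

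Oncogenes were expressed in 47 of 51 cases, against 75.2% of all protein-coding genes, with a median of 22.5 TPM. Of the cell cycle genes, CDK4 (chr12:57747727-57756013) led the whole list with 238, 252 and 249.9 TPM, CCND1 had 102 ± 1.82 TPM, MDM2 67.7 ± 2.66 TPM, CCNE1 62.8 ± 4.21 TPM and CDK6 4.84, 4.55 and 4.85 TPM. MYC had 78.7, 74.6 and 71.8 TPM, MYCL 3.24 ± 0.474 TPM and MYCN 3, 5 and 1 reads. NRAS had 183, 199 and 201 TPM and the kinase gene BRAF 8.52 ± 0.619 TPM. HRAS had 4, 24 and 81 reads, with 100% of its stretches copied elsewhere. The kinase gene AKT1 had 68.7 ± 0.0927 TPM and PIK3CA, a PI3K catalytic subunit, 9.8 ± 0.0914 TPM.

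Survival and oncofetal genes were also present. MCL1, an antiapoptotic BCL2 relative, had 191, 199.7 and 204 TPM. The noncoding gene ADAMTSL4-AS1, which overlaps it on the same strand, carries the same reads in each library (13627, 15381 and 15788), so the reads of this pair could not be told apart. BIRC5 (survivin) had 143 ± 3.3 TPM and BCL2L1 67.1 ± 2.6 TPM, while BCL2 had 1.81 ± 0.0829 TPM. The RNA-binding proteins IGF2BP3, IGF2BP2 and IGF2BP1, active in the fetus, had 48.2 ± 0.445, 31.7 ± 1.26 and 12.2 ± 1.07 TPM. HMGA1 had 31 ± 3.23 TPM beside HMGA2 at 22 ± 1.26 TPM. The telomerase gene TERT had 68, 73 and 74 reads, equal to 1.0 ± 0.00421 TPM, and IGF2 had 0.398 ± 0.166 TPM. Of the transcription factors, YAP1 had 77.7 ± 2.15 TPM, WWTR1 31.9 ± 1.33 TPM, JUN 48.3 ± 0.64 TPM, FOS 36.7 ± 2.28 TPM and EZH2 48.2 ± 1.5 TPM. NFIB exceeded its relatives NFIX (8.54 ± 1.51 TPM), NFIC (6.76 ± 1.72 TPM) and NFIA (6.7 ± 0.721 TPM) in every library.

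The libraries of NFIB did not overlap those of any relative. Which relative was highest depended on the length, since with the canonical transcript NFIA had 27.6 TPM and NFIX 5.9 TPM, beside 161 TPM for NFIB.

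The BET proteins, the targets of the inhibitors used elsewhere in the series, read acetylated histones. BRD3 had 17.5, 17 and 16.6 TPM. BRD2 had 7, 14 and 168 reads with 95.6% of its stretches copied, so its level could not be set beside that of BRD3. BRDT was not analysed here.

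Proliferation genes were high without exception in their list. TOP2A, the mitotic topoisomerase (chr17:40388525-40417896), had 829.5, 896 and 902 TPM and PCNA, the replication clamp, 799, 854 and 872 TPM. CCNB1 had 547 ± 19.4 TPM, CDK1 261 ± 15 TPM and MKI67 156 ± 5.6 TPM. By mean at this length all 21 members were above 50 TPM, and 18 were at or above 100 TPM, which 1236 of 16612 protein-coding genes reached. With the canonical transcript CDC6 was at 37.8 TPM. The lowest members were CDC6 at 50.7 ± 1.41 TPM and PLK1 at 60.4 ± 1.81 TPM.

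Antigen presentation genes could be read only in part, since 10 of 15 with a value were copied beyond the limit. B2M had 135 ± 8.24 TPM with 90% copied. HLA-B (3.49 ± 0.21 TPM, 58.6% copied), HLA-C (1.76 ± 0.468 TPM, 83.9% copied) and HLA-E (2, 8 and 9 reads, 100% copied) were low. Without copied stretches beyond the limit, NLRC5, the activator of class I genes, had 9.55 ± 1.1 TPM and CIITA, that of class II genes, 6, 13 and 7 reads.

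Families of specialised tissues differed in the share of members at the floor, beside 14.9% of all protein-coding genes. Of 58 olfactory receptor genes with a value, 49 (84.5%) were at the floor and 3 were expressed, with OR2B6 highest at 3.23 ± 0.728 TPM. Leaving out those copied beyond the limit, 42 of 50 olfactory receptors and 13 of 14 keratin-associated proteins were at the floor. Of the keratin-associated proteins of hair, 14 of 15 were at the floor and none was expressed. All 5 cornified envelope and SPRR genes were at the floor, 1 of them (SPRR2A) with 37.5% of its stretches copied. GABA A receptor subunits were at the floor in 9 of 14 cases, with GABRQ highest at 1.97 ± 0.149 TPM. Of 10 cancer testis genes with a value, 8 were at the floor, including MAGEA1, MAGEC2 and SYCP1 with 0 reads in each library. The broadly expressed MAGED2 and MAGED1 had 169 ± 0.199 and 95.8 ± 4.93 TPM. Of 34 keratins, 19 were at the floor, and KRT81, a hair keratin with 35% of its stretches copied, was highest at 50.7 ± 2.68 TPM. Fewer members were at the floor among the clustered protocadherins of neural cells, at 5 of 51 with 20 expressed, the voltage-gated potassium channels, at 12 of 35 with 14 expressed, and the glutamate receptors, at 5 of 19 with 7 expressed. Rows absent from the table were not counted in any family.

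The spread between the 3 replicate libraries is given as the coefficient of variation. The study's methods name a removal of outlier samples, and whether replicate 16 was among them is not given in the sources used here, so the spread may be that of libraries left after such a removal. Over 11229 genes with a mean of at least 100 normalized counts, the median coefficient of variation between the 3 libraries was 4.57%. The SD that counting error alone gives, as a share of the mean, had a median of 2.58% over these genes. From 100 to 1000 normalized counts the median was 6.34% and from 1000 to 10000 it was 3.88%. The spread beyond counting error was 5.74% from the mean of the excess variance over these genes and 3.48% from its median. Replicates 14 and 15 were closest, with a median absolute log2 ratio of 0.05, against 0.09 for each pair with replicate 13. The median squared difference was 2.26 times the median that counting error gives in the pair 14 and 15, and 6.37 and 5.40 times in the pairs of 13 with 14 and with 15. No pair agreed within counting error, which does not show whether the libraries came from separate cultures. Without replicate 13 the median coefficient of variation was 2.52%. A median coefficient over so few libraries lies below the SD behind it, so neither 4.57% nor 2.52% can be set directly against the 2.58%.

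The deviation of replicate 13 moved with base composition and length. In the 2662 protein-coding genes with the lowest GC content, its median log2 ratio to the mean of the other libraries was -0.09, and in the 2662 with the highest it was 0.04. By exon length, it was -0.07 in the 2662 shortest and 0.0012 in the 2662 longest genes. Replicate 13 was the lowest of the 3 libraries for 50.4% of the genes. The part of these properties in the spread of single genes was not tested.

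**Figure D5:**
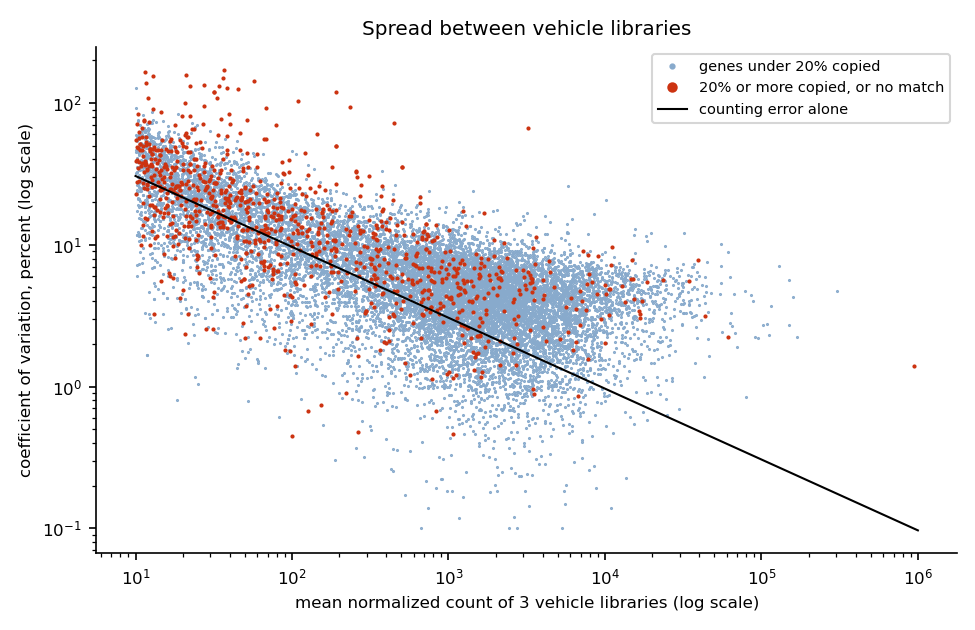
Coefficient of variation between the 3 vehicle libraries against the mean normalized count, both on log axes, for genes with a mean of at least 10. The black line is the spread from counting error alone, the median gene above a count of 100 lies at 4.57%, and many of the points far above the cloud are red, for genes with at least 20% of their stretches copied or with no matched annotation.

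Few genes varied strongly between the vehicle libraries. A ratio of highest to lowest library above 1.5 was found for 70 of the 11229 genes (0.62%), and 31 of them were copied beyond the limit or had no matched annotation. Without replicate 13, 14 or 15 the number was 27, 44 or 24. Among genes with at least 90% of their stretches copied, 19 of 51 (37.3%) passed that ratio, against 39 of 10747 (0.36%) under the 20% limit. The 10 largest ratios were those of RRN3, NOMO1 (96.7% copied), INTS3, ASMTL (100% copied), EIF3C (96.2% copied), RN7SL4P (33.3% copied), LOC102724594, CEP170 (100% copied), its pseudogene CEP170P1 (57.4% copied) and POU5F2. RRN3, a factor of RNA polymerase I (100% copied), had 22, 110 and 492 reads, and INTS3 (100% copied) had 15, 85 and 257 reads. CEP170 and CEP170P1 carried the same reads in each library. POU5F2, with 161, 70 and 105 reads and no copied stretch, was the most variable gene under the copy limit. NEAT1, the RNA of nuclear paraspeckles, named after its values were seen, had 7768, 4960 and 5920 reads and was highest in replicate 13.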

How the data were processed

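Strand-specific total RNA libraries were sequenced on a NovaSeq instrument. Per the labels and the study's methods, the authors processed the reads with FastQC 0.73, Trimmomatic, HISAT2 2.2.1 (hg38) and featureCounts 2.0.3, counted them on a Gencode annotation, normalized the counts with DESeq2 and removed outlier samples. The values deposited by the authors are on a log2 scale, as log2 of the normalized count plus 1, which was inferred from the values. The table names 22784 symbols, partly in NCBI style. Of its 10 columns the 3 of the vehicle group were used, and 0 columns could not be mapped to a sample.

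The log2 and the added 1 were undone. In each library 99.73% to 99.74% of the values were then whole multiples of 1 step within 0.01 reads, which gave the reads. For 65 symbols they were not whole, and 47 groups of symbols carried identical reads of at least 200. Symbols were matched to Gencode V44 (21798 by symbol, 85 by RefSeq synonym and 13 mitochondrial, 96.1% in all), and 0.3% of reads lay on unmatched symbols. TPM were computed from the reads and the union of annotated exons. Non-overlapping exon stretches of 75 bases were searched on both strands for exact copies in 194 primary sequences and 261 alternate contigs of hg38. Whether the index of the authors held those contigs is not given in the sources used here. The spread was the coefficient of variation of normalized counts, and the code was tested on simulated data. Intervals and floors cover counting error only. No group was compared with another, and no p-value was computed.

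Genes named are the 15 protein-coding and 10 noncoding genes highest in TPM, members of the lists and the highest member of some of the families. The 10 genes with the largest library ratio at a mean of at least 100 normalized counts are named too. The dot plots of receptors, suppressors and oncogenes show the members named, and some members are not reported here. Further genes were chosen after their values were seen, namely HOXB13, ATP8, ADAMTSL4-AS1 and NEAT1. The vehicle libraries, the lists and the families were chosen with earlier results of these data known. Alternatives were count minimums, floors, transcript lengths, scalings and leaving out each library. Python 3.11.15, numpy 2.4.6, pandas 2.3.3 and numba were used.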

Additional observations from a re-analysis of the deposited data

How the results depend on the processing

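The number of expressed genes stayed within 1.5 times the reported value under every setting tried, from 13159 at 20 normalized counts to 14875 at 5, and from 14165 to 14238 when 1 library was left out. The number at the floor was 2167 when 0 reads were required in each library and 4570 with at most 3 reads summed over the libraries. The shares of TPM depended on the genes and lengths used. The 10 highest genes held 34.9% of TPM over all genes, 28.1% with the longest transcript as length, 23.9% with the Ensembl canonical transcript, 10.1% without RN7SL1, 8.57% over protein-coding genes and 6.64% of normalized counts with no length. The 100 highest held 47.5%, and under the same settings 41.9%, 41.2%, 27.3%, 26.3% and 17.9%. Leaving out 1 library gave 34.5% to 35.1% and 47.2% to 47.7%.

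Over the lists, 337 of 483 genes with a value were expressed and 79 were at the floor, against 296 at a TPM of at least 1, and 71 at the floor without copied genes. With at least 1 TPM as the limit 6 of 26 lists moved by over 1.5 times, to 7 expressed of 22 epithelial, 2 of 16 skeletal and cardiac, 1 of 9 endothelial, 1 of 9 immune, 2 of 10 neural and glial and 2 of 7 cartilage and bone genes. Of 6 adipocyte genes 1 was expressed, but 3 were with a minimum of 5 normalized counts and 2 without replicate 14. The median coefficient of variation was 2.52% to 4.65% when 1 library was left out, lowest without replicate 13, and the cause was not tested. The number of genes with a library ratio above 1.5 was 1484 at a mean of at least 10, 3 at a mean of at least 1000, 39 without copied or unmatched genes, and 27, 44 and 24 without replicate 13, 14 and 15. The canonical length, the copied genes and the left-out libraries of the spread were added after the data were seen. Over protein-coding genes alone every TPM of such a gene is 1.5 times higher, and 49 of 321 named genes at or above 1 TPM moved by over 1.5 times with the longest transcript and 114 with the canonical one, with which 24 rose by over 2 times (TPM1 318 TPM, FAS 89.8 TPM, NFIA 27.6 TPM and FH 154 TPM). No paired analysis was possible because the vehicle libraries were compared with no other group. Depth limits low genes, since 3 reads are 2.73 to 2.91 normalized counts.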

Other observations

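Matrix and adhesion families were examined beyond the marker lists. Counts of expressed members stand beside 75.2% of all protein-coding genes expressed and 14.9% at the floor, and the share was 73.1% for integrins and 76.9% for HOX genes. Of 43 collagen genes, 25 were expressed and 15 were at the floor, and COL5A2, which regulates fibril diameter, was highest at 757, 756 and 793 TPM in vehicle replicates 13, 14 and 15. The integrin subunit ITGB1, shared by many matrix receptors, had 253 ± 10.4 TPM and was the highest of 26 integrins, of which 19 were expressed. LAMB2 led the 11 laminins at 149 ± 11.8 TPM. MMP14, a membrane-bound collagenase, led 18 matrix metalloproteinases at 91.9 ± 7.58 TPM, and SERPINH1, a collagen chaperone, led 22 serpins at 279.7 ± 2.3 TPM. The highest classical or related cadherin was CDH24 at 31.4 ± 2.27 TPM, with 10 of 20 cadherins at the floor.

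Families of secreted signals and developmental factors differed in how many members were expressed. FGF2 had 84.8, 86.2 and 87.6 TPM, while 7 of 17 FGF ligands were at the floor. Among WNT ligands WNT5B was highest at 22 ± 0.365 TPM, and IL18 led the interleukins at 31.1 ± 2.78 TPM, with 6 of 27 expressed. CXCL1, a neutrophil attractant, led 19 chemokines at 47.6, 53 and 51.9 TPM, of which 9 were expressed. Of 39 HOX genes, which set position along the body axis, 30 were expressed, a share near that of all protein-coding genes, and 2 were at the floor, with HOXB7 highest at 43.2 ± 0.368 TPM and HOXB13 next at 27.2 ± 0.0797 TPM. SOX4 led the SOX family at 93 ± 2.99 TPM and FOXM1, a driver of mitotic genes, the FOX family at 67.2 ± 4.16 TPM. Zinc finger genes named ZNF were expressed in 445 of 482 cases, with a median of 12.2 TPM and ZNF146 highest at 189 ± 8.42 TPM. Of 9 metallothioneins, MT2A was highest at 1312, 1302 and 1179 TPM, and 3 were at the floor.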
